A study of Mus musculus with 8 samples.

Results

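The enzymes of oxidative phosphorylation (OXPHOS) were followed as a group of 92 protein-coding genes among the 24451 genes measured in mouse liver. A gene was taken as a member by its symbol alone, when it was named as a numbered Nduf gene of complex I, an Sdh gene of complex II, a Uqcr gene of complex III, a Cox4 to Cox8 gene of complex IV, an Atp5 gene of complex V, or carried the mt- prefix of mitochondrial DNA. Of these members, 84 were nuclear (38 of complex I, 4 of complex II, 8 of complex III, 17 of complex IV and 17 of complex V) and 8 were mt- genes. The other protein-coding genes of mitochondrial DNA were not analysed here.

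Oxidative phosphorylation couples the oxidation of NADH and succinate to the synthesis of ATP. Complexes I, III and IV pump protons across the inner mitochondrial membrane, complex II feeds electrons from succinate into the chain without pumping, and complex V, the ATP synthase, uses the proton gradient. Complexes I, III, IV and V are built from subunits of both genomes, whereas complex II is wholly nuclear-encoded, and hepatocytes are rich in all of them.

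Livers of 4 Brap LKO mice, in which Brap carries loxP sites on both alleles and an Albumin-Cre transgene deletes its exons 2 and 3, were compared with livers of 4 Brap F/F mice that carry the same floxed alleles without Cre. The Albumin promoter drives Cre in the hepatocyte lineage, and which other cells of the liver lost Brap was not measured here. All animals were C57BL/6 mice, 18 wk old and fasted for 6 h, the paper's main mouse studies used males, and the left lobe of the liver was sequenced. Reads counted on genes numbered from 26280884 to 33313914 in a liver. Values are normalized counts, that is reads divided by a size factor for each liver, and a log2 fold change is Brap LKO over Brap F/F on the scale of log2(normalized count + 1).

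The Brap gene as a whole does not check the labels, because only 2 of its exons are deleted, and it stood at 3988 ± 242 normalized counts in Brap LKO and 4186 ± 179 in Brap F/F livers (SD, n = 4 each; limma, log2 fold change −0.071, adjusted p = 0.631). Over all 15352 genes tested with limma (mean normalized count of at least 5), 102 were higher and 16 were lower in Brap LKO at an adjusted p under 0.05. DESeq2 on the recovered reads called 448 higher and 159 lower of the 16387 genes for which it gave an adjusted p. Hepatocyte markers were abundant in every liver, with a summed level between 2495830 and 4509640 normalized counts, and markers of striated muscle summed to at most 10.4 in any liver.

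Promoters are shown for the nuclear members with the lowest fold change in complexes I, II and V, since the promoters of many OXPHOS genes are known to hold sites for NRF1, for ETS factors such as GABPA, and for YY1. The sequences are RefSeq promoters of the GRCm38.p6 build, from 250 bases before to 50 bases after the gene's start in RefSeq, written 5′ to 3′ on the gene's strand. Capitals mark the match that was found: a YY1 match within the Ndufs4 promoter (chr13:114388045-114388344, minus strand), an ETS match within that of Sdhb (chr4:140961021-140961320, plus strand) and an NRF1 match within that of Atp5g3 (chr2:73911277-73911576, minus strand; read on the opposite strand).
Ndufs4: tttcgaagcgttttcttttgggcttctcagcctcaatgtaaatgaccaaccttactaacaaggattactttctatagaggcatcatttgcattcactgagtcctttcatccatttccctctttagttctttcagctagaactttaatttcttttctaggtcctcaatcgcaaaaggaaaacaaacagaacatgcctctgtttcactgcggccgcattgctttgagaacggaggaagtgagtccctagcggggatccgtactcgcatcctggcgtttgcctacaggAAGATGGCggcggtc
Sdhb: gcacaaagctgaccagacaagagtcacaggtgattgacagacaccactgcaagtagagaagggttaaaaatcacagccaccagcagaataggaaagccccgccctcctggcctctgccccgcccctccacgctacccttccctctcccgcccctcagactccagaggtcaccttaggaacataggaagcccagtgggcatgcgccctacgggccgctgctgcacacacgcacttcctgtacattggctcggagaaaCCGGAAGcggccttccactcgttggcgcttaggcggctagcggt
Atp5g3: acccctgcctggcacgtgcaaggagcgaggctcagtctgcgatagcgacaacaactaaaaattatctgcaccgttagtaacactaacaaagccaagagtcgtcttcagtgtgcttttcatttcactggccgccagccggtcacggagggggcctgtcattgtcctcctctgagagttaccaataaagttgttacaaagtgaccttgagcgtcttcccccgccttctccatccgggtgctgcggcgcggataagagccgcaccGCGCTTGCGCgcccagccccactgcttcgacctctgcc

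The motifs were searched on both strands as GCGCA, any base and GCGC in a row (NRF1), CCGGAAG (ETS) and AAGATGGC (YY1). A promoter was at hand for 67 of the 84 nuclear members, and those of Uqcrb and Cox6c were not among them. The NRF1 letters were present in 23.9% of the member promoters and in 9.91% of the 11225 promoters of tested genes. For ETS these shares were 23.9% and 17.3%, and for YY1 13.4% and 4.44%. Matches of different motifs overlapped in 0 of the 67 promoters. The RefSeq start differed from the GENCODE start of the gene by 164 bases for Ndufs4, 68 for Sdhb and 0 for Atp5g3. Over the 67 promoters the median difference was 34 bases, with 9 over 250 bases and the highest at 3643 bases. A match describes letters in the window and not a bound site.

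The level of a member per kilobase of transcript showed which isoforms the liver used. Of the 84 nuclear members, 69 had a mean above 1000 normalized counts per kb and 10 lay below 200. Atp5g1 is among the latter, where the transcript used is 4715 bases long. The highest per kb in each complex were Ndufa4, named for complex I but now counted with complex IV, at 11968, Sdha, the flavoprotein of succinate dehydrogenase, at 5840, Uqcrh, the hinge protein of complex III, at 5954, Cox4i1 at 10519 and Atp5b, the catalytic beta subunit of ATP synthase, at 17077. The median over the tested nuclear members was 2614 per kb, and over the tested mt- members it was 216235.

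Isoforms known from muscle, lung or testis were close to absent. Cox4i1, the common form of subunit 4, had between 6678 and 9462 normalized counts in the 8 livers, whereas Cox4i2, its lung form, had between 1.02 and 4.25. Cox6a1 had 3762 to 5253 and Cox6a2 0 to 2.02, Cox6b1 had 3454 to 4450 and Cox6b2 0 to 11.4, and Cox7a2 had 2231 to 2872 and Cox7a1 6.87 to 15.3. Cox8a lay between 2943 and 4540 and Cox8b between 0 and 2.28. The paralogue Ndufa4l2 stood at 33.3 to 57.9 and Ndufa4 at 4583 to 6456.

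The c subunit of ATP synthase is made from 3 genes whose mature products are the same. Atp5g3 was the most abundant of them, at 14850 normalized counts per kb in Brap F/F and 12367 in Brap LKO livers. Atp5g1 stood at 144 and 124 per kb and Atp5g2 at 86.3 and 94.2, where the length is that of the transcript with the longest coding sequence (4715 bases for Atp5g1 and 714 for Atp5g3). That long transcript lowers the level of Atp5g1 per kb. Before division by length the Brap F/F means were 10603 normalized counts for Atp5g3, 680 for Atp5g1 and 38.0 for Atp5g2. All windows of 50 bases in Atp5g2 (100%) also occur in another annotated transcript, so its reads can be split between genes.

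**Figure D1:**
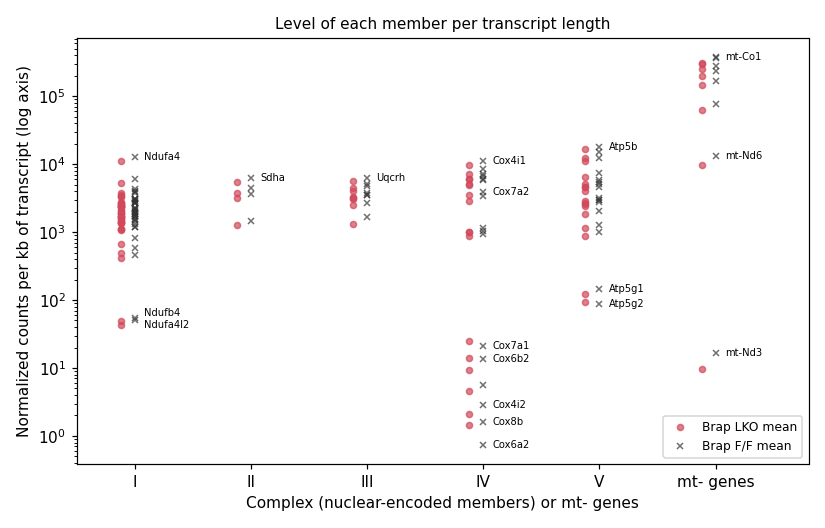
Mean normalized counts per kb of transcript on a log axis for each of the 92 members, by complex for the nuclear members and together for the mt- genes. Circles are means of 4 Brap LKO livers and crosses means of 4 Brap F/F livers; the mt- genes other than mt-Nd3 and mt-Nd6 stand above all nuclear members, and the isoforms Cox4i2, Cox6a2 and Cox8b lie at the bottom.

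Whether loss of Brap in the liver went with a change of OXPHOS mRNA was asked first of the nuclear members, of which 80 passed the filter on low values. Not 1 was past the threshold in either direction (limma; 0.769% of all tested genes were called, 0.104% lower and 0.664% higher). On the recovered reads edgeR also called 0 (0.0912% of genes lower, 0.703% higher), as did DESeq2 (0.97% lower, 2.73% higher). Nevertheless 77 of the 80 had a fold change below 0, where 52% of all tested genes did. That share rose with abundance. It was 65.7% for genes with a mean of 500 to 5000 normalized counts, the range of 62 nuclear members. Above 5000, the range of 12 nuclear members, it was 78.0%. The median log2 fold change of the nuclear members was −0.18, a level 11.8% lower in Brap LKO, and that of all tested genes was −0.010. At an unadjusted p under 0.05, limma counted 26 of 80 nuclear members lower (32.5%) and 0 higher, where 6.59% of all tested genes were lower and 9.23% higher. edgeR counted 19 of them lower (5.97% of all tested genes) and DESeq2 26 (7.15%).

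Each of the 5 complexes had a median below 0. It was −0.17 in complex I (38 of 38 tested members below 0), −0.19 in complex II (4 of 4), −0.19 in complex III (8 of 8), −0.18 in complex IV (11 of 13) and −0.16 in complex V (16 of 17). Single members were measured to within a median of 0.20 on the log2 scale on either side (95% confidence interval), and the interval included 0 for 54 of the 80.

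**Figure D2:**
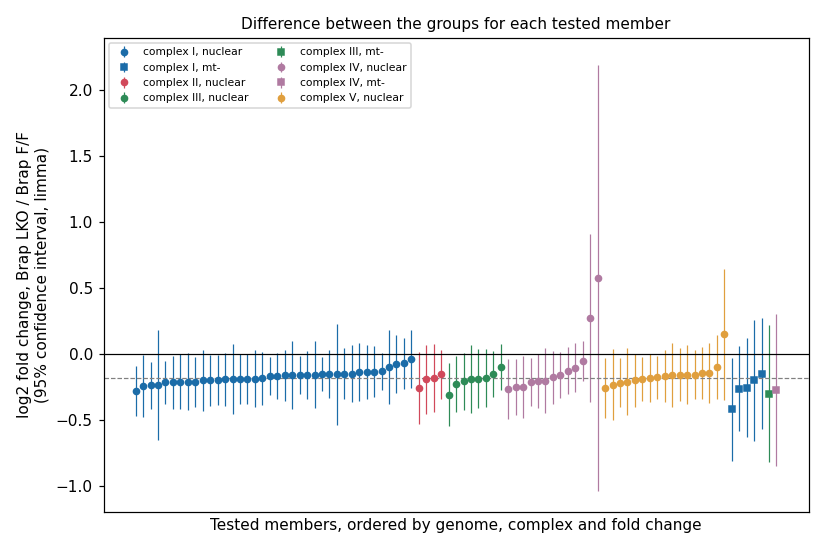
Log2 fold change of each of the 87 tested members, Brap LKO over Brap F/F, with its 95% confidence interval from limma, coloured by complex; circles are nuclear and squares mt- genes, and the dashed line is the nuclear median of −0.18. Nearly all points sit below 0, and the intervals of 54 of the 80 nuclear members include 0.

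In complex I the lowest fold change was that of Ndufs4, an accessory subunit of the NADH-oxidizing arm. It had 1150, 1121, 1237 and 994 normalized counts in Brap LKO livers 1 to 4 and 1259, 1489, 1354 and 1363 in Brap F/F livers 1 to 4. All Brap LKO livers lay under all Brap F/F livers (log2 fold change −0.28, SE 0.084; limma adjusted p = 0.163, the smallest of any nuclear member; exact permutation p = 0.0286, the smallest that 4 against 4 can give). At the other end of complex I stood Ndufb3, an accessory subunit of the membrane arm, with −0.040 on the log2 scale (interval at 95% confidence from −0.26 to 0.18).

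The groups did not overlap for 7 nuclear members, all lower in Brap LKO and all in complex I: Ndufs4, Ndufs6, Ndufb11, Ndufa8, Ndufa11, Ndufa1 and Ndufb7, named here after their values were seen. They are 8.75% of the 80 tested, and 4.39% of all tested genes had groups that did not overlap in this direction. In the other direction the count was 0 of 80, and 5.48% over all tested genes. Ndufs6, a zinc-binding subunit, had 1333, 1383, 1311 and 1320 normalized counts in Brap LKO and 1532, 1713, 1701 and 1386 in Brap F/F (−0.24 on the log2 scale, limma adjusted p = 0.198). Ndufa8 had 2031, 2113, 2142 and 1958 beside 2316, 2350, 2232 and 2271, and its groups were the tightest of the set (log2 fold change −0.15, SE 0.057; limma adjusted p = 0.249).

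Complex II oxidizes succinate and is also an enzyme of the TCA cycle. Sdhb, its iron-sulfur subunit, had 4597, 4440, 4459 and 3447 normalized counts in Brap LKO and 4338, 5735, 5593 and 4624 in Brap F/F livers. Brap LKO liver 4 stood apart below and Brap F/F livers 2 and 3 above all others, and the groups overlapped because Brap F/F liver 1 lay below Brap LKO livers 1 to 3 (log2 fold change −0.26, SE 0.12; limma adjusted p = 0.345). Sdha had a log2 fold change of −0.19 and Sdhc, a membrane anchor, one of −0.16.

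In complex III, Uqcrb, a small subunit beside the quinone-binding site, had the lowest fold change of all nuclear members. It had 647, 747, 771 and 696 normalized counts in Brap LKO and 881, 1007, 941 and 734 in Brap F/F livers. Of the Brap F/F livers 1 to 3, each lay above every Brap LKO liver, and only liver 4 lay among them (log2 fold change −0.31, SE 0.11; limma adjusted p = 0.213). Of its windows of 50 bases, 43.4% occur in other annotated transcripts. Uqcrh and Uqcr11 had log2 fold changes of −0.15 and −0.098.

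In complex IV the lowest was Cox6c, a small structural subunit, with 2549, 2697, 2632 and 2170 normalized counts in Brap LKO and 2657, 3423, 3200 and 2811 in Brap F/F livers. The groups overlapped by a narrow margin (log2 fold change −0.26, SE 0.10; limma adjusted p = 0.259). Cox4i1 had a log2 fold change of −0.21, Cox6a1 −0.21, Cox6b1 −0.16, Cox7a2 −0.13, Cox7b −0.25 and Cox8a −0.25. The 2 members above 0 were the scarce Cox7a1 (0.27) and Cox6b2 (0.58, 95% confidence interval −1.04 to 2.19), whose values rested on few reads. Without Brap F/F liver 3 the value of Cox6b2 was −0.12.

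In complex V, Atp5g3 had 8768, 9127, 9524 and 7900 normalized counts in Brap LKO and 9899, 11598, 11704 and 9211 in Brap F/F livers. Brap LKO liver 3 lay above Brap F/F liver 4 and the other Brap LKO livers lay under all Brap F/F livers (log2 fold change −0.26, SE 0.10; limma adjusted p = 0.266). The other c-subunit genes had log2 fold changes of −0.21 (Atp5g1) and 0.15 (Atp5g2), the latter the only tested member of complex V above 0, and at −0.046 after quantile normalization. Atp5b had 32026, 33351, 32143 and 28686 beside 29490, 36773, 36787 and 32502, and its log2 fold change was −0.099 (interval at 95% confidence from −0.34 to 0.14).

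The mt- genes are transcribed in the organelle by its own RNA polymerase, from both strands, as long precursors that are cut into single mRNAs. All 7 tested mt- members had a fold change below 0, with a median of −0.27 (16.8% lower). Their means lay above 5000 normalized counts, where 78.0% of tested genes were below 0 and the median was −0.11. limma called 0 of the 7 (0.769% of all tested genes) and edgeR 0 (0.0912% lower, 0.703% higher). DESeq2 on the recovered reads called mt-Nd1 (log2 fold change −0.26, adjusted p = 0.0451, beside the 0.97% of all genes). With limma, 1 of the 7 had an unadjusted p under 0.05, and with DESeq2 5 had, where the shares over all tested genes were 6.59% and 7.15% lower. The limma intervals of the mt- members were wide, with a median of 0.42 on either side, and without the mean-variance trend the SE of mt-Nd1 was 0.082 in place of 0.17.

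mt-Nd1, a core membrane subunit of complex I, had 183102, 179783, 189151 and 202106 normalized counts in Brap LKO and 225954, 245432, 225214 and 204755 in Brap F/F livers. The groups did not overlap, and Brap LKO liver 4 and Brap F/F liver 4 were close (log2 fold change −0.26, SE 0.17; limma adjusted p = 0.486; exact permutation p = 0.0286). mt-Co1, the catalytic subunit of cytochrome c oxidase, had 490993, 494668, 480613 and 441264 beside 531118, 639819, 645352 and 502385, again without overlap (log2 fold change −0.27, SE 0.26; limma adjusted p = 0.628). These 2 of 7 stand beside the 4.39% of all tested genes without overlap in this direction.

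mt-Nd6, which lies on the strand opposite to the other mt- members, had the lowest fold change of the mt- genes. It had 5783, 4739, 4905 and 4482 normalized counts in Brap LKO and 4568, 8483, 7413 and 6755 in Brap F/F livers. Brap F/F liver 1 lay among the Brap LKO livers and the other Brap F/F livers lay above all of them (log2 fold change −0.42, SE 0.17; limma adjusted p = 0.289). mt-Cytb, the cytochrome b of complex III, had a log2 fold change of −0.30, mt-Nd4 −0.27, mt-Nd5 −0.20 and mt-Nd2 −0.15, all with limma adjusted p of 0.396 or more.

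mt-Nd3 did not pass the filter, with 0, 0, 6 and 7 reads in Brap LKO and 11, 0, 0 and 11 reads in Brap F/F livers, where a count of 0 allows up to 3 reads. Most of its transcript is also present in the nuclear genome. Of its 299 windows of 50 bases, 293 (97.99%) occur in Gm28438, at chr1:24612775-24613119 on the minus strand. The first 300 of its 348 bases (GRCm38, mitochondrial positions 9459 to 9758, plus strand) are printed with the bases inside shared windows in capitals, since they show how little of the transcript a read of 50 bases could tell from the copy.
mt-Nd3: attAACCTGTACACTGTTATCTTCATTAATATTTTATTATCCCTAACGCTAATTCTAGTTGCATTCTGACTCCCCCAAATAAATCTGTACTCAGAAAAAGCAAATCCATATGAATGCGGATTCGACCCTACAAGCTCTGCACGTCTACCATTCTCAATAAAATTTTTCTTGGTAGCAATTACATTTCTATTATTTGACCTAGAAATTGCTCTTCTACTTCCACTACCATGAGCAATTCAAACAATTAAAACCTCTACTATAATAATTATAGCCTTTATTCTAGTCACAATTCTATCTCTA

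Gm28438 had 122, 109, 0 and 0 reads in Brap LKO and 0, 142, 115 and 2 reads in Brap F/F livers. The livers with reads on Gm28438 above 2 (Brap LKO 1 and 2, Brap F/F 2 and 3) were those with 0 reads on mt-Nd3. These livers do not follow the groups, and the level of mt-Nd3 cannot be compared from these counts. Of the other mt- members, mt-Nd4 shared 62.2% and mt-Co1 51.1% of its windows with other annotated transcripts, mt-Nd2 8.19% and mt-Nd5 7.61%, and mt-Nd1, mt-Nd6 and mt-Cytb shared 0.

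**Figure D3:**
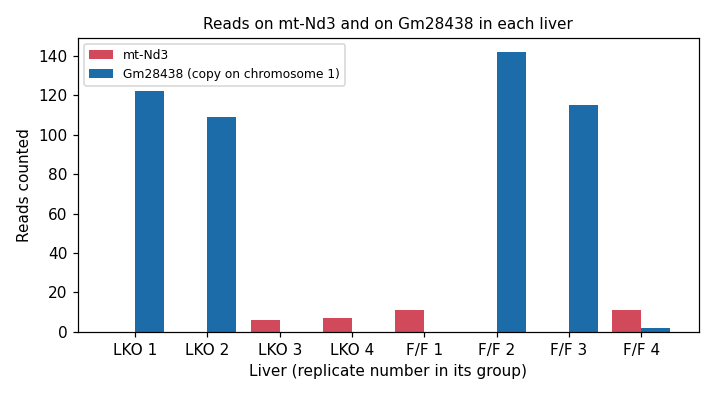
Reads counted on mt-Nd3 and on its nuclear copy Gm28438 in each of the 8 livers, with bars from 0. Gm28438 had over 100 reads in 4 livers, in which mt-Nd3 had 0, and at most 2 reads in the other 4 livers.

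Among the nuclear members, 36 of 84 shared no window with another transcript. Of the 34 of these that were tested, 32 had a fold change below 0 and their median was −0.19, near the −0.18 of all 80. Those with over 50% of windows shared were Ndufa12, Cox7c, Atp5h, Cox5b-ps, Atp5l and Atp5g2, chosen here by that share.

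The members moved together from liver to liver. Brap F/F liver 2 had the highest level of the 8 livers in 56 of the 80 tested nuclear members and Brap F/F liver 3 in 20, and Brap LKO liver 4 had the lowest in 67. The median deviation of the nuclear members from their mean over the livers was −0.092, −0.018, −0.022 and −0.23 in Brap LKO livers 1 to 4 and −0.043, 0.23, 0.17 and −0.011 in Brap F/F livers 1 to 4 on the log2 scale. Brap F/F livers 2 and 3 were high, Brap LKO liver 4 was low and the other livers lay between them.

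**Figure D4:**
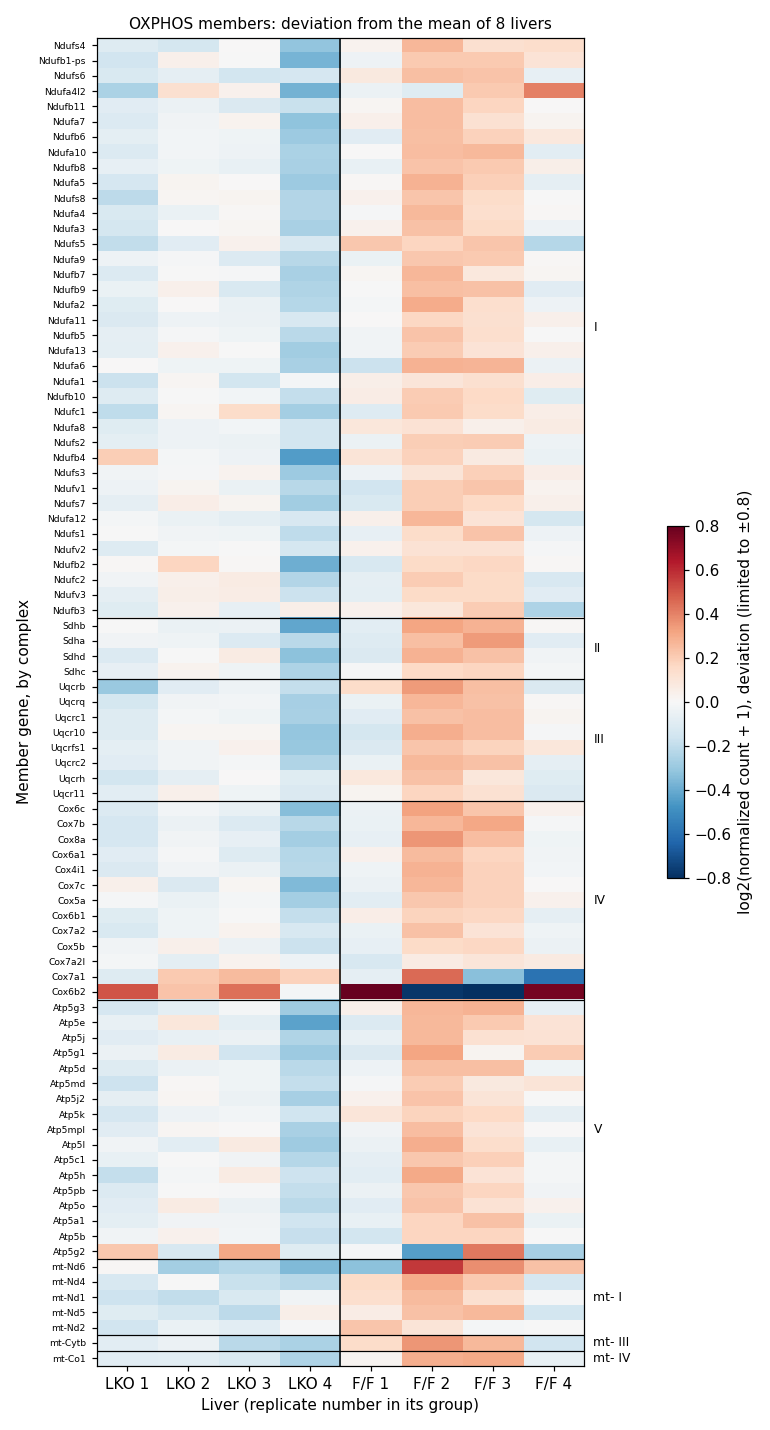
Deviation of log2(normalized count + 1) from the mean of the 8 livers for the 87 tested members (rows, by complex, nuclear members first) in each liver (columns); colours are limited at ±0.8. Brap F/F livers 2 and 3 are red and Brap LKO liver 4 is blue in nearly every nuclear row.

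The count of 26 nuclear members lower at an unadjusted p under 0.05 changed when 1 liver was left out. It was 4 without Brap F/F liver 2 (4.20% of all tested genes), 6 without Brap F/F liver 3 (4.96%), 5 without Brap LKO liver 4 (5.30%) and 9 without Brap LKO liver 1 (3.90%). It was 40 without Brap F/F liver 1 (7.02%). The median log2 fold change stayed between −0.22 and −0.13 when any liver was left out. The labels also hold a number for each liver, read here as an animal number. These numbers were split here into a low and a high range, over which the groups are spread unevenly. Within the low range (3 livers from Brap LKO, 1 from Brap F/F) the nuclear median was −0.0051, with 42 of 80 members lower, and within the high range (1 from Brap LKO, 3 from Brap F/F) it was −0.37, with 77 of 80 lower. With the range as a covariate over all 8 livers the nuclear median was −0.19, with 78 of 80 below 0. For the mt- members the medians were −0.26 in the low and −0.35 in the high range.

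Hepatocyte markers varied in the same livers. Their median deviation was −0.18, −0.12, 0.040 and −0.27 in Brap LKO livers 1 to 4 and −0.084, 0.37, 0.28 and −0.0058 in Brap F/F livers 1 to 4. Over the groups 7 of the 10 hepatocyte markers had a fold change below 0, with a median of −0.27. They ran from −0.86 for Tat to 0.19 for Apob, with Hnf4a at 0.053 and Apoa1 at 0.0096. Their summed level ranged from 2495830 to 3391340 normalized counts in Brap LKO and from 3073450 to 4509640 in Brap F/F livers. Alb made up most of that sum, with means of 1703130 in Brap LKO and 2441600 in Brap F/F livers. All 8 cholangiocyte markers were above 0, with a median of 0.95 and sums of 1922 to 3786 beside 1137 to 2131. Cftr, a chloride channel, was called (log2 fold change 2.91, limma adjusted p = 0.0331), on at most 19 reads in any liver. The medians were 0.66 for stellate cell and fibroblast markers, 0.62 for lymphocyte and 0.44 for macrophage markers. They were 0.38 for mural cell, 0.16 for sinusoidal endothelium and −0.078 for red blood cell markers. The stellate cell and fibroblast list ran from −0.56 for Ecm1 to 1.44 for Dpt, with Lrat at −0.12. Lymphocyte markers ran from 0.18 for Nkg7 to 1.83 for Ms4a1 (at most 22 reads), and macrophage markers from 0.021 for Clec4f to 1.05 for Ccr2. Sinusoidal endothelium ran from 0.12 for Stab2 to 0.32 for Kdr. Red blood cell markers ran from −1.29 for Slc4a1 (at most 13 reads) to 0.13 for Hba-a2. Pdgfrb, placed here on the mural cell list, was called (0.91, limma adjusted p = 0.0494), while Myh11 and Kcnj8 of that list were at −0.11 and −0.012. The part of cell composition in the OXPHOS values was not tested, and in bulk RNA fewer cells of a type and less RNA per cell cannot be told apart.

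As a share of all normalized counts the members overlapped between the groups. The 84 nuclear members made up 0.938, 0.950, 0.917 and 0.840% in Brap LKO and 0.874, 0.967, 0.979 and 0.868% in Brap F/F livers. The 8 mt- members made up 5.93, 5.84, 5.45 and 5.77% in Brap LKO and 6.31, 6.45, 6.38 and 5.39% in Brap F/F livers, and Brap F/F liver 4 was below every other liver. Summed mt- counts were 6.32, 6.15, 5.95 and 6.87 times the nuclear sum in Brap LKO and 7.22, 6.67, 6.52 and 6.21 times in Brap F/F livers, and the groups overlapped.

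The size of the nuclear difference depended on how the livers were scaled. Totals of normalized counts did not overlap between the groups. They were 27440741 to 28975099 in Brap LKO and 29964617 to 32729998 in Brap F/F livers, so equal totals raised Brap LKO values against Brap F/F values for genes in general. When every liver was set to the same total, the median of all tested genes moved from −0.010 to 0.15 and that of the nuclear members from −0.18 to −0.023, with 52 of 80 below 0 and Ndufb3, Sdhc, Uqcrh, Uqcr11, Cox7a2 and Atp5b among those now above. Relative to the median of all genes the nuclear members kept −0.17 under both scalings, and 77 of 80 lay below that median. After quantile normalization the nuclear median was −0.12, which is −0.099 relative to all genes, with 74 of 80 below their median. The mt- median was −0.11 at the same total and 0.016 after quantile normalization, where 3 of 7 mt- members were below 0. Abundant genes in general had lower fold changes: the median was 0.17 for the 4037 genes with a mean of 5 to 50 normalized counts, 0.023 for those of 50 to 500, −0.053 for the 5412 genes of 500 to 5000 and −0.11 for the 805 genes above. The 62 nuclear members with a mean of 500 to 5000 had a median of −0.18 and the 12 above 5000 had −0.20.

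**Figure D5:**
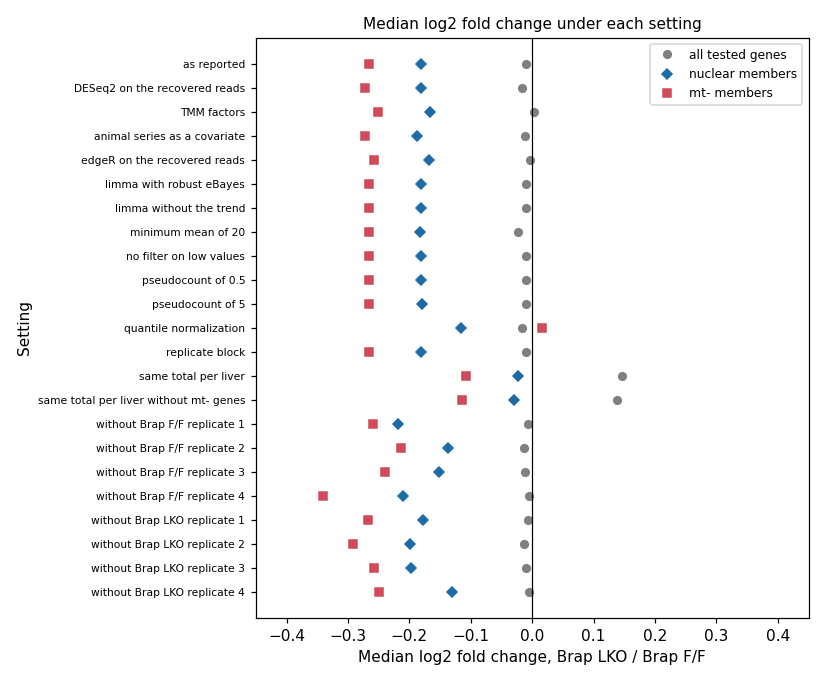
Median log2 fold change, Brap LKO over Brap F/F, of all tested genes (grey circles), nuclear members (blue diamonds) and mt- members (red squares) as reported and under 22 other settings. The nuclear median stays left of that of all genes under every setting shown, and the mt- median crosses 0 under quantile normalization.

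Other mitochondrial gene lists had 0 members called as well (limma; 0.769% of all tested genes were called). Of 77 tested proteins of the mitochondrial ribosome, 74 had a fold change below 0, with a median of −0.14, from −0.38 for Mrps36 to 0.081 for Mrpl19, and 20 had an unadjusted p under 0.05, all lower (6.59% of all tested genes). By the same count 6 of 21 TCA cycle genes and 8 of 49 assembly factors were lower. Of 21 TCA cycle genes 19 were below 0 with a median of −0.17, and the ends of the list were kinases that inhibit pyruvate dehydrogenase, Pdk1 at −0.51 and Pdk4 at 0.33. Of 49 assembly factors 38 were below 0 with a median of −0.10, from −0.46 for Sco2 to 0.31 for Cox17, which both serve copper delivery to complex IV. The 9 tested carriers and subunits that the naming rule leaves out had a median of −0.12, from −0.19 for Cyc1, the cytochrome c1 of complex III, to 0.022 for Dhodh.

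Of 29 genes that express or maintain mitochondrial DNA, 22 were below 0, with a median of −0.063. The list ran from −0.23 for Mgme1, an exonuclease of mitochondrial DNA, to 1.01 for Mterf1b, which had at most 15 reads in any liver. Among 19 tested regulators of OXPHOS genes 12 were below 0, with a median of −0.062, from −0.72 for Esrrb to 0.34 for Ppargc1b, a coactivator of mitochondrial biogenesis. None of these extremes passed the threshold.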

How the data were processed

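Polyadenylated RNA of 8 livers was read from one end (50 bases) in NuGEN Universal Plus mRNA libraries, and STAR 2.6.0c (mm10) was the authors' aligner. The counting tool, annotation and use of strand are not given in the sources used here. The deposited signal is a gene's read count divided by the authors' DESeq2 size factor of each liver. All values (100%) were whole multiples of 1 read within 0.01, so reads were recovered. A second deposited table holds the authors' own comparison (fold changes and p-values) and was not used. Groups came from the titles, and 0 per-liver columns were left out.

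The 15352 genes whose normalized counts averaged 5 or more were tested with limma 3.58.1 (trend) on log2(normalized count + 1), with Benjamini-Hochberg adjustment over all of them and a threshold of 0.05. Count tests on recovered reads used edgeR 4.0.16 (quasi-likelihood) and DESeq2 1.42.0. Single values were also tested by two-sided exact permutation over 70 arrangements. On simulated data of the same size limma called 161 of 200 changed genes (70 of 100 changed 2-fold and 91 of 100 changed 4-fold) and 7 others. The simulation held no smaller changes and drew the noise separately for each gene. It therefore does not show how often differences of the members' size would be called. Separate animals are inferred from the different numbers in the labels, and floors for a count of 0 cover counting error only.

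Positions and transcript lengths (longest coding transcript) came from GENCODE vM21 on GRCm38. The tested alternatives were other pseudocounts, filters, scalings, variance options, count tests and each liver left out. They also included a block on the replicate number and the animal series (a low or high label number, a split made here) as a covariate. Members and lists were chosen with earlier results of these data known. Named with values are the extremes and the highest level per kb of each complex, the mt- genes, the tissue isoforms, and in each list the called genes and the extremes. Other genes were named after their values were seen.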

Additional observations from a re-analysis of the deposited data

Results flagged for a closer look

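A sample was set apart when its gap to the nearest other liver of its group was large against the range of the group (Dixon's test at 95%). Of 72 groups examined 3 met this, and about 3.6 are expected by chance. Sdhb in Brap LKO liver 4 had 3447 normalized counts, and the other Brap LKO livers had 4440 to 4597. Cox8b in Brap F/F liver 1 had 2.28 normalized counts, and the rest of that group had 0. The mt- members took 5.39% of the normalized counts in Brap F/F liver 4 while the rest of that group had 6.31 to 6.45%. What set these livers apart was not tested.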

How the results depend on the processing

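The number of nuclear members past the threshold was 0 under the 22 alternatives, and that of mt- members was 0 under all but DESeq2, with 1 (mt-Nd1, log2 fold change −0.26). The nuclear median was −0.023 at the same total per liver and −0.030 at the same total without mt- genes, and the mt- median was −0.11 under both and 0.016 after quantile normalization. Leaving out 1 liver gave −0.22 to −0.13 for the nuclear and −0.34 to −0.21 for the mt- median.

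Of 658 values of single members, 635 kept direction and side of the threshold, 22 changed sign and 1 passed the threshold. At the same total per liver Ndufb3 was 0.12, Uqcr11 0.059, Atp5b 0.058, Cox7a2 0.029, mt-Nd2 0.0073, Uqcrh 0.0026 and Sdhc 0.0012. Without mt- genes in that total Ndufb3 was 0.11, Uqcr11 0.052, Atp5b 0.051, Cox7a2 0.022 and mt-Nd2 0.00014. After quantile normalization mt-Co1 was 0.10, mt-Cytb 0.056, Atp5b 0.032, mt-Nd5 0.023, mt-Nd2 0.016, Ndufb3 0.0068 and Atp5g2 −0.046. Cox6b2 was −0.038 with the animal series in the fit. Without 1 liver it ranged from −0.12 (without Brap F/F replicate 3) to 1.09 (without Brap F/F replicate 1) and Ndufb3 from −0.13 to 0.022 (the latter without Brap F/F replicate 3). Beyond the scalings the cause was not tested.

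Of the nuclear members, 26 were lower at an unadjusted p under 0.05 (limma; 6.59% of all tested genes were lower). That count became 0 at the same total (1.32% of all tested genes) and 0 at the same total without mt- genes (1.34%). After quantile normalization it was 3 (6.25%; nuclear median −0.12). It was 7 with the animal series (4.44%; nuclear median −0.19) and 11 without the trend (5.35%). Without 1 liver it ranged from 4 to 40.

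Replicate numbers were not taken as pairs. Correlations of same-numbered livers were −0.13, 0.0034, 0.196 and 0.29 for replicates 1 to 4. The highest correlation of each Brap LKO liver with a Brap F/F liver of another number was 0.16, 0.0010, 0.195 and 0.20. Replicate 1 thus did not correlate best with its own number, replicates 2 and 3 did by a narrow margin, and replicate 4 did more clearly. With the replicate block 0 nuclear and 0 mt- members were called. In that fit 40 nuclear members were lower at an unadjusted p under 0.05, beside 7.14% of all tested genes.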

Other observations

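The 2 ribosomal RNAs of mitochondrial DNA, which the member rule leaves out as they encode no protein, made up 0.215, 0.167, 0.197 and 0.199% of normalized counts in Brap LKO livers 1 to 4 and 0.200, 0.412, 0.293 and 0.200% in Brap F/F livers 1 to 4. Brap F/F livers 2 and 3, in which nuclear members were highest, had the largest shares, and the other 6 livers lay between 0.167 and 0.215%.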
